A study of Mus musculus with 19 samples.

Results

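The coagulation and complement genes are 43 genes that encode clotting factors, their inhibitors, plasminogen, vitronectin and the proteins of the complement cascade. The rule that finds them uses the gene symbol and no measured value, although the list was drawn up with earlier results of these data known, and all 43 were found among the 23337 gene symbols of the RNA-seq tables. Each was represented by its RefSeq transcript with the highest mean count. The study asked whether cystic embryoid bodies (cystic EBs), fluid-filled structures differentiated from mouse embryonic stem (ES) cells, can stand in for visceral yolk sac endoderm (ysE). RNA-seq covered 5 groups in 11 libraries. There was 1 library of ysE at E12.5 (embryonic day), and there were 2 each of E9.25 ysE, E9.25 visceral yolk sac (VYS) mesoderm and E12.5 fetal liver, all from FVB mice. Cystic EBs (C57Bl/6x129) gave 4 libraries, from ES cell clones A9 (XY) and JN (XX) at 10 and 15 days of differentiation (d10 and d15). DNA methylation was measured in E12.5 ysE, E12.5 liver and d15 cystic EBs of crosses between Cast and FVB, and H3K4me3 in E12.5 FVB yolk sac. No group carried a transgene or received a compound as an experimental treatment. The study separated the VYS layers by hand after incubation with the enzyme Dispase II, which lasted longer at E12.5 than at the earlier stage. Tissue of a whole litter was pooled for each library, VYS mesoderm included the blood vessels and the basement membrane, and each clone was a single ES line.

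Coagulation ends in the cleavage of fibrinogen, a protein of alpha, beta and gamma chains, by the protease thrombin, and the resulting fibrin is dissolved by plasmin. Complement is a cascade of plasma proteases that is started by antibody (classical), by sugar-binding lectins or by spontaneous turnover (alternative), meets at C3 and ends in a pore of C5 to C9. After birth hepatocytes make most of these plasma proteins. In the mouse embryo the visceral endoderm of the yolk sac secretes many of the same proteins, while endothelium, megakaryocytes and macrophages make others of the list.

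The fibrinogen genes lie next to each other on chromosome 3 (Fgg at 83007724, Fga at 83026153), and the bases upstream of their starts are shown because these 3 genes had the highest levels of the list in ysE. F13b and Hc are shown beside them because their promoters hold a letter pattern of the fibrinogen promoters while their levels across tissues differed. Each line gives bases 200 to 1 before the start, 5′ to 3′ on the strand of the gene, from RefSeq on GRCm38.p6. Capitals mark GTTAATNAT (HNF1), TTGCNNAA (C/EBP) and CTGGGAA (an element of interleukin-6 responsive promoters), searched on both strands. In these lines no marked patterns overlap.
Fga (chr3:83025953-83026152, + strand): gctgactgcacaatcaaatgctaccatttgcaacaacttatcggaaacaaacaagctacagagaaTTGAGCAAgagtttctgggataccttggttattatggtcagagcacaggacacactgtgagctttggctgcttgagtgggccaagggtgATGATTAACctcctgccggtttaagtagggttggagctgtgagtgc
Fgb (chr3:83049864-83050063, - strand): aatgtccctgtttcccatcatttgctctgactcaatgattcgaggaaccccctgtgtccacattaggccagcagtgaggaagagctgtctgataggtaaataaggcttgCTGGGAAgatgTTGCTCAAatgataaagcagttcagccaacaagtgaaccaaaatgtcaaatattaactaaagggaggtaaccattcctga
Fgg (chr3:83007524-83007723, + strand): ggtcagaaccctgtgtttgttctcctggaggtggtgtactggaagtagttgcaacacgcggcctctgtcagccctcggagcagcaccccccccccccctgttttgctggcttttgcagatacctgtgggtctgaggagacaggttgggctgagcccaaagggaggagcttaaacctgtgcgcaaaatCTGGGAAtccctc
F13b (chr1:139501507-139501706, + strand): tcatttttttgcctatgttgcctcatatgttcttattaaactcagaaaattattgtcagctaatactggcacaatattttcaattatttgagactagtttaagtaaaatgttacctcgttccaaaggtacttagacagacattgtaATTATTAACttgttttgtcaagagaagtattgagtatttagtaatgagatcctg
Hc (chr2:35061413-35061612, - strand): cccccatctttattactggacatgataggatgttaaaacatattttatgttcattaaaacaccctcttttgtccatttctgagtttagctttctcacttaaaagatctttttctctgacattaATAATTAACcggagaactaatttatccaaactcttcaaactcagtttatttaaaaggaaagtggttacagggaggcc

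Fga held the HNF1 pattern at bases -46 to -38 and the C/EBP pattern at -135 to -128, Fgb held the C/EBP and interleukin-6 patterns at -80 to -73 and -91 to -85, and Fgg held the interleukin-6 pattern at -13 to -7. F13b and Hc held the HNF1 pattern at -54 to -46 and -77 to -69. RefSeq starts were given for 32 members, with 35 promoters in all. The HNF1 pattern stood in 3 of the 35 (8.57%), against 0.639% of all 32851 mouse promoters of the same length. For the C/EBP pattern the shares were 7 of 35 (20.0%) and 7.47%, and for the interleukin-6 pattern 5 of 35 (14.3%) and 7.26%. The other promoters with the C/EBP pattern were those of C3, C9, F9, F11 and Klkb1. A match is a description of the letters and not a site of binding.

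Levels are given as RPKM (reads scaled for the length of the transcript and for library size), which allows genes of different length to be compared. Libraries held 40453779 to 169981821 counts over all transcripts. The E12.5 ysE library was not strand-specific, E9.25 ysE, VYS mesoderm and clone JN libraries used dUTP, and liver and clone A9 libraries used ScriptSeq. Library protocol therefore cannot be told apart from tissue or stage in the comparisons that use the E12.5 ysE library. The same holds wherever levels in liver are set against those in E9.25 ysE or VYS mesoderm below. Libraries of E9.25 ysE and VYS mesoderm share a protocol, and cystic EBs are also compared with liver and E9.25 ysE within 1 protocol. Reads of a gene and of an antisense partner cannot be separated in the E12.5 ysE library. Differences are log2 values from edgeR's quasi-likelihood test over 24858 transcripts, with Benjamini-Hochberg adjustment and a false discovery rate (FDR) of 5%. The comparisons share libraries, and libraries of a tissue are called A and B. The libraries of a group were not stated to be separate experiments beyond their litters or clones. The 7 visceral endoderm markers, Afp and Ttr among them, summed to 39600.0 RPKM in E12.5 ysE, 9638 to 10670.0 in that of E9.25, 1093 to 1935 in VYS mesoderm, 1656 to 2892 in liver and 166 to 1281 in cystic EBs. Endothelial markers summed to 0.372 in E12.5 ysE and 164 to 182 in VYS mesoderm.

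Members reached a mean of at least 5 RPKM most often in liver, with 25 of 43, followed by E12.5 ysE with 20, E9.25 ysE with 13, VYS mesoderm with 8 and cystic EBs with 4. The highest mean of a member lay in E12.5 ysE (1 library) for 19 genes, in liver for 16, in VYS mesoderm for 3, in cystic EBs for 3 and in E9.25 ysE for 2. Of all genes with a RefSeq start and reads, 2423 were highest in E12.5 ysE and 3144 in liver. The others were highest in VYS mesoderm (3175), cystic EBs (4573) and E9.25 ysE (1581). Without liver B, C3 was highest in E12.5 ysE, and without liver A, Masp1 was highest in liver. Without d15 A9, Pros1 and Tfpi were highest in VYS mesoderm in place of cystic EBs, which left 1 gene (F3) highest in cystic EBs and 5 in mesoderm. The summed level of the list was 5290.5 RPKM at E12.5 in ysE, 1082 and 1160.0 in ysE of E9.25, 255 and 249 in VYS mesoderm, 624 and 1074 in fetal liver, and 156, 99.2, 760.4 and 191 in cystic EBs (in the order d10 A9, d10 JN, d15 A9 and d15 JN, which is kept below). In bulk tissue, fewer cells that express a gene and less RNA per cell cannot be told apart.

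**Figure D1:**
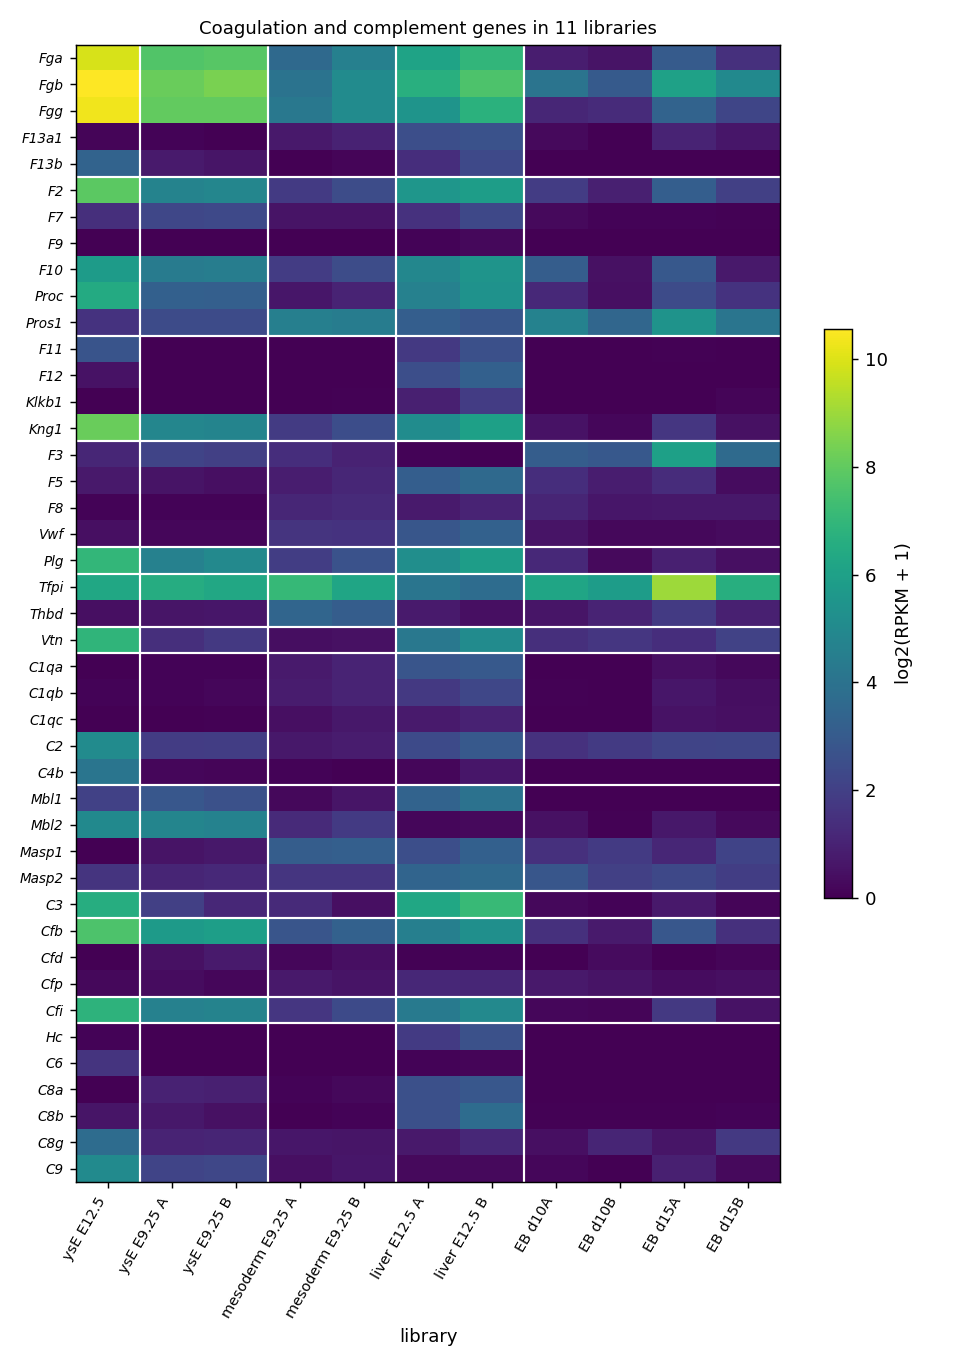
Level of each of the 43 genes (rows, grouped by role with white lines) in each of the 11 libraries (columns), as log2(RPKM + 1) by colour. The fibrinogen genes are brightest in E12.5 ysE, where Fgb reached 1508 RPKM, and Tfpi stands out in the d15 cystic EB library of clone A9 at 523 RPKM.

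Fibrinogen is the substrate of clotting. Fgb, the beta chain, stood at 1508 RPKM in E12.5 ysE, 284 and 342 in ysE at E9.25, 15.4 and 33.0 in VYS mesoderm, 99.8 and 194 in fetal liver, and 15.9, 6.85, 65.2 and 31.5 in cystic EBs. Fga, the alpha chain, stood at 971 RPKM in E12.5 ysE, 204 and 224 in ysE at E9.25, 11.3 and 23.3 in VYS mesoderm, 69.7 and 124 in fetal liver, and 0.819, 0.491, 7.13 and 1.79 in cystic EBs. Fgg, the gamma chain, stood at 1276 RPKM in E12.5 ysE, 257 and 257 in ysE at E9.25, 17.6 and 32.7 in VYS mesoderm, 43.1 and 107 in fetal liver, and 1.19, 1.47, 9.27 and 3.63 in cystic EBs. For all 3 chains, E12.5 ysE was highest, E9.25 ysE lay above every liver library, and VYS mesoderm lay below liver. F13b, the carrier subunit of the fibrin-crosslinking factor XIII, stood at 9.15 RPKM in E12.5 ysE, 0.683 and 0.507 in ysE at E9.25, 0.029 and 0.116 in VYS mesoderm, 1.61 and 4.09 in fetal liver, and 0.013, 0.029, 0.029 and 0.024 in cystic EBs. Its catalytic subunit F13a1, which macrophages and platelets make, stood at 0.12 RPKM in E12.5 ysE, 0.084 and 0.029 in ysE at E9.25, 0.67 and 1.002 in VYS mesoderm, 4.88 and 5.27 in fetal liver, and 0.212, 0.02, 1.05 and 0.545 in cystic EBs. The subunits of factor XIII were thus highest in different tissues, F13b in E12.5 ysE and F13a1 in liver.

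The vitamin K-dependent proteins carry a calcium-binding Gla domain. F2, which encodes prothrombin, stood at 238 RPKM in E12.5 ysE, 25.0 and 27.4 in ysE at E9.25, 2.50 and 4.44 in VYS mesoderm, 45.5 and 57.2 in fetal liver, and 2.67, 0.891, 8.02 and 3.05 in cystic EBs. F10, the protease that cleaves prothrombin, stood at 53.8 RPKM in E12.5 ysE, 20.0 and 21.0 in ysE at E9.25, 2.73 and 4.47 in VYS mesoderm, 28.5 and 43.2 in fetal liver, and 7.59, 0.406, 6.61 and 0.632 in cystic EBs. Proc, the anticoagulant protein C, stood at 87.5 RPKM in E12.5 ysE, 8.35 and 8.15 in ysE at E9.25, 0.566 and 1.08 in VYS mesoderm, 23.6 and 40.8 in fetal liver, and 1.34, 0.369, 4.30 and 1.92 in cystic EBs. These 3 genes shared their order, with E12.5 ysE above liver, liver above E9.25 ysE and VYS mesoderm below, and liver and ysE did not overlap. F7, the protease that starts clotting with tissue factor, stood at 1.66 RPKM in E12.5 ysE, 3.73 and 4.08 in ysE at E9.25, 0.464 and 0.47 in VYS mesoderm, 1.80 and 3.89 in fetal liver, and 0.196, 0.084, 0.085 and 0.035 in cystic EBs. Its highest mean lay in E9.25 ysE, whose values overlapped those of liver. Pros1, the cofactor of protein C, ran against the group, with 1.94 RPKM in E12.5 ysE, 4.36 and 4.31 in ysE at E9.25, 22.5 and 20.7 in VYS mesoderm, 7.95 and 6.01 in fetal liver, and 24.4, 10.3, 41.9 and 16.2 in cystic EBs. For Pros1, VYS mesoderm and cystic EBs lay above liver and ysE. F9, the factor lacking in hemophilia B, stayed at or below 0.173 RPKM in all libraries, with its highest values in liver.

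Kng1 (kininogen, the source of bradykinin) stood at 279 RPKM in E12.5 ysE, 27.5 and 26.5 in ysE at E9.25, 2.54 and 4.62 in VYS mesoderm, 34.5 and 62.4 in fetal liver, and 0.413, 0.14, 2.15 and 0.379 in cystic EBs. A paralog, Kng2, is nearly identical in sequence, and reads of the pair may be shared. F11, the zymogen of the contact pathway, stood at 5.60 RPKM in E12.5 ysE, 0 and 0 in ysE at E9.25, 0 and 0.003 in VYS mesoderm, 2.36 and 4.90 in fetal liver, and 0.014, 0, 0.031 and 0.014 in cystic EBs. F12, which starts that pathway, stood at 0.438 RPKM in E12.5 ysE, 0 and 0.009 in ysE at E9.25, 0.009 and 0 in VYS mesoderm, 4.84 and 8.32 in fetal liver, and 0.016, 0.009, 0.027 and 0 in cystic EBs. Klkb1, plasma prekallikrein, was measured at 0.930 and 2.62 RPKM in liver and at no more than 0.095 elsewhere. Of the contact genes, Kng1 and F11 were highest in E12.5 ysE and F12 and Klkb1 in liver.

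The cofactors and the initiator of clotting had other patterns. F3, tissue factor, stood at 1.199 RPKM in E12.5 ysE, 3.47 and 3.02 in ysE at E9.25, 1.63 and 1.02 in VYS mesoderm, 0.059 and 0 in fetal liver, and 7.68, 6.47, 63.1 and 11.6 in cystic EBs. F5, the cofactor of factor X, stood at 0.639 RPKM in E12.5 ysE, 0.464 and 0.346 in ysE at E9.25, 0.819 and 1.21 in VYS mesoderm, 7.94 and 11.1 in fetal liver, and 1.58, 0.804, 1.54 and 0.29 in cystic EBs. Vwf, the carrier of factor VIII made by endothelium and megakaryocytes, stood at 0.347 RPKM in E12.5 ysE, 0.15 and 0.149 in ysE at E9.25, 2.05 and 1.91 in VYS mesoderm, 6.15 and 8.78 in fetal liver, and 0.452, 0.158, 0.166 and 0.237 in cystic EBs. F3 was thus highest in cystic EBs, and F5 and Vwf in liver. F8, which endothelium makes, stood at 0.059 RPKM in E12.5 ysE, 0.073 and 0.068 in ysE at E9.25, 1.22 and 1.41 in VYS mesoderm, 0.681 and 1.06 in fetal liver, and 1.16, 0.548, 0.593 and 0.601 in cystic EBs, highest in VYS mesoderm.

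Plg, which encodes the fibrin-degrading zymogen plasminogen, stood at 127 RPKM in E12.5 ysE, 23.8 and 30.4 in ysE at E9.25, 2.75 and 5.25 in VYS mesoderm, 35.8 and 57.4 in fetal liver, and 1.34, 0.199, 0.888 and 0.363 in cystic EBs. Tfpi, the inhibitor of tissue factor, stood at 77.4 RPKM in E12.5 ysE, 91.1 and 80.0 in ysE at E9.25, 135 and 72.1 in VYS mesoderm, 16.4 and 12.4 in fetal liver, and 73.4, 55.8, 523 and 97.4 in cystic EBs. Thbd, the endothelial thrombin receptor thrombomodulin, stood at 0.356 RPKM in E12.5 ysE, 0.52 and 0.539 in ysE at E9.25, 9.74 and 7.56 in VYS mesoderm, 0.675 and 0.342 in fetal liver, and 0.498, 1.09, 2.50 and 0.921 in cystic EBs. Plg was highest in E12.5 ysE, whereas Tfpi was lowest in liver and Thbd highest in VYS mesoderm. Vtn, vitronectin, which binds both the terminal complement complex and the plasminogen activator inhibitor, stood at 118 RPKM in E12.5 ysE, 1.71 and 2.37 in ysE at E9.25, 0.33 and 0.407 in VYS mesoderm, 17.9 and 33.4 in fetal liver, and 1.70, 2.19, 1.60 and 3.23 in cystic EBs. The E12.5 ysE value of Vtn lay above all others, and both liver values lay above those of E9.25 ysE and cystic EBs.

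**Figure D2:**
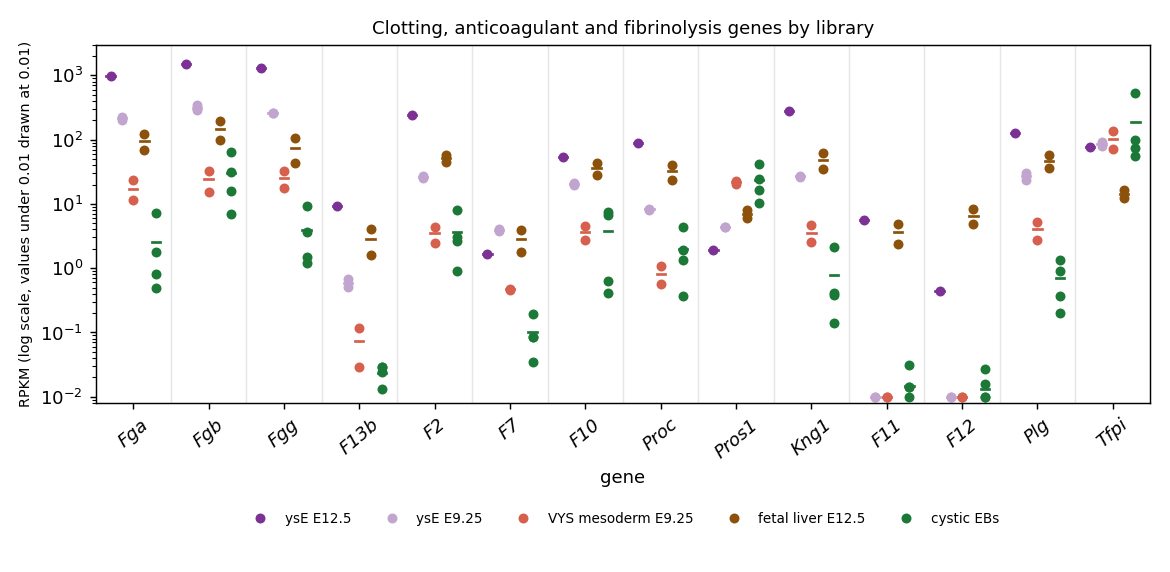
RPKM (y axis, log scale) of 14 clotting, anticoagulant and fibrinolysis genes (x axis), 1 point for each library (values under 0.01 drawn at 0.01) and a short line for the mean of each tissue (ysE E12.5 has 1 library). Fga, Fgb, Fgg, F2, Proc, Kng1 and Plg have their highest point in E12.5 ysE and their lowest in VYS mesoderm or cystic EBs, whereas the Tfpi points of liver (12.4 and 16.4) lie lowest.

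In the classical pathway, C1qa, C1qb and C1qc, the subunits of the recognition protein C1q, are made by macrophages. C1qa stood at 0.021 RPKM in E12.5 ysE, 0.07 and 0.067 in ysE at E9.25, 0.709 and 1.06 in VYS mesoderm, 5.82 and 6.79 in fetal liver, and 0, 0, 0.355 and 0.156 in cystic EBs. C1qb and C1qc stayed at or below 3.76 and 0.994 RPKM and were also highest in liver. C2, the protease of the C3 convertase, stood at 32.9 RPKM in E12.5 ysE, 2.63 and 2.79 in ysE at E9.25, 0.6 and 0.743 in VYS mesoderm, 4.21 and 6.66 in fetal liver, and 1.81, 2.49, 3.45 and 3.60 in cystic EBs. C4b, its partner, stood at 15.99 RPKM in E12.5 ysE, 0.144 and 0.112 in ysE at E9.25, 0.071 and 0.012 in VYS mesoderm, 0.145 and 0.554 in fetal liver, and 0.012, 0.005, 0.013 and 0.01 in cystic EBs. C4b is nearly identical to its neighbour C4a, and its value is uncertain where reads of the pair were shared. Both C2 and C4b were highest in E12.5 ysE, whereas the C1q genes were near 0 there, with 1 count for C1qa, 3 for C1qb and 0 for C1qc.

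The lectin pathway begins with mannose-binding lectins. Mbl1 stood at 3.14 RPKM in E12.5 ysE, 6.31 and 5.14 in ysE at E9.25, 0.179 and 0.494 in VYS mesoderm, 9.40 and 15.0 in fetal liver, and 0, 0, 0 and 0.017 in cystic EBs. Mbl2 stood at 31.5 RPKM in E12.5 ysE, 27.3 and 24.6 in ysE at E9.25, 1.36 and 2.46 in VYS mesoderm, 0.124 and 0.196 in fetal liver, and 0.37, 0.033, 0.588 and 0.204 in cystic EBs. The lectins had different orders, since Mbl2 lay at 24.6 RPKM or above in every ysE library and below 0.2 in liver, whereas Mbl1 was highest in liver. Masp1, the lectin-bound protease, stood at 0.025 RPKM in E12.5 ysE, 0.484 and 0.612 in ysE at E9.25, 7.78 and 8.21 in VYS mesoderm, 4.80 and 8.43 in fetal liver, and 1.77, 2.44, 1.19 and 3.35 in cystic EBs. Masp2 stood at 2.02 RPKM in E12.5 ysE, 1.15 and 1.31 in ysE at E9.25, 2.07 and 2.08 in VYS mesoderm, 9.43 and 11.1 in fetal liver, and 6.04, 3.06, 3.86 and 2.76 in cystic EBs. Masp1 was thus highest in VYS mesoderm and liver and had 3 counts in E12.5 ysE.

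C3, the central component, stood at 94.7 RPKM in E12.5 ysE, 2.99 and 1.26 in ysE at E9.25, 1.38 and 0.342 in VYS mesoderm, 76.3 and 139.6 in fetal liver, and 0.176, 0.074, 0.64 and 0.09 in cystic EBs. Cfb, the protease of the alternative C3 convertase, stood at 194 RPKM in E12.5 ysE, 53.5 and 59.95 in ysE at E9.25, 5.89 and 8.69 in VYS mesoderm, 22.7 and 37.0 in fetal liver, and 1.78, 0.712, 6.30 and 1.77 in cystic EBs. Cfi, which inactivates C3b, stood at 112 RPKM in E12.5 ysE, 23.9 and 25.1 in ysE at E9.25, 2.19 and 4.14 in VYS mesoderm, 18.9 and 30.2 in fetal liver, and 0.122, 0.105, 2.42 and 0.447 in cystic EBs. E12.5 ysE and liver overlapped for C3, and both lay above the other tissues. Cfd (factor D) and Cfp (properdin) stayed at or below 0.677 and 1.25 RPKM, and Cfd had 0 counts in E12.5 ysE.

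The terminal genes encode the pore-forming complex. Hc, which encodes C5, stood at 0.068 RPKM in E12.5 ysE, 2.47 and 5.12 in liver and no more than 0.015 elsewhere. C8a stood at 0.006 RPKM in E12.5 ysE, 1.03 and 0.93 in ysE at E9.25, 0.07 and 0.166 in VYS mesoderm, 4.98 and 6.37 in fetal liver, and 0.009, 0.007, 0 and 0 in cystic EBs. C8b stood at 0.528 RPKM in E12.5 ysE, 0.591 and 0.376 in ysE at E9.25, 0.027 and 0.06 in VYS mesoderm, 4.94 and 12.4 in fetal liver, and 0.057, 0.047, 0.055 and 0.068 in cystic EBs. C8g, the third C8 chain, stood at 12.2 RPKM in E12.5 ysE, 1.06 and 1.15 in ysE at E9.25, 0.546 and 0.525 in VYS mesoderm, 0.626 and 1.24 in fetal liver, and 0.35, 1.15, 0.522 and 2.35 in cystic EBs. C9, the pore subunit, stood at 32.0 RPKM in E12.5 ysE, 3.48 and 3.71 in ysE at E9.25, 0.35 and 0.558 in VYS mesoderm, 0.193 and 0.215 in fetal liver, and 0.143, 0, 0.92 and 0.219 in cystic EBs. C6 was measured at 1.98 RPKM in E12.5 ysE and at no more than 0.106 elsewhere. No tissue had its highest value for all chains: E12.5 ysE led for C6, C8g and C9, and liver for C5, C8a and C8b.

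**Figure D3:**
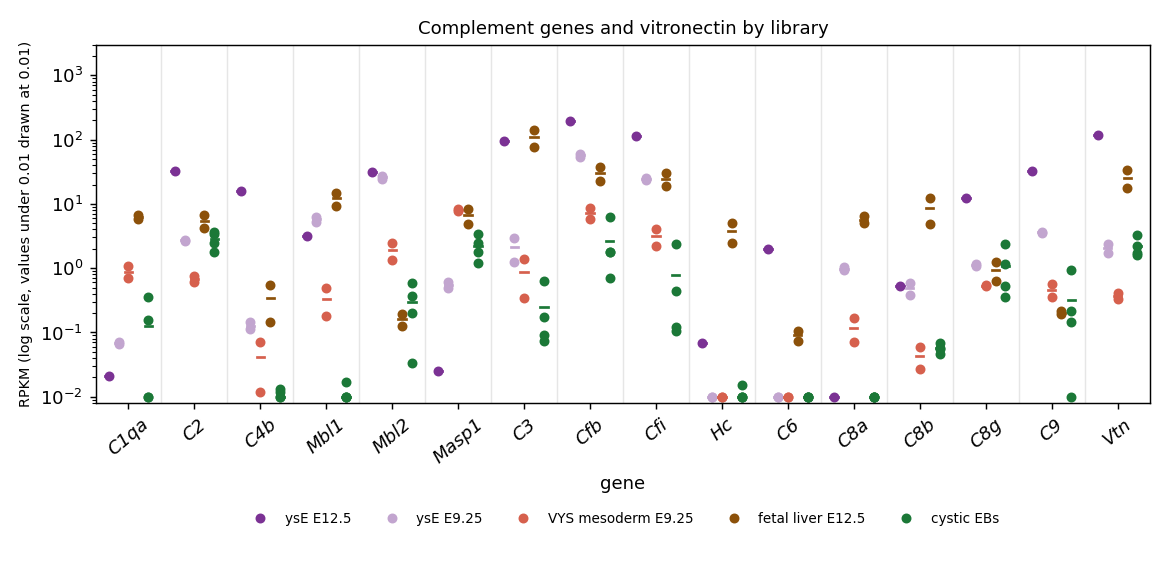
RPKM (y axis, log scale, values under 0.01 drawn at 0.01) of 15 complement genes and Vtn (x axis), 1 point for each library and a short line for the mean of each tissue. C2, C4b, Cfb, Cfi, C6, C8g, C9 and Vtn have their highest point in E12.5 ysE, and C1qa, Hc, C8a and C8b in liver.

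Against VYS mesoderm, the tissue beside it, E9.25 ysE had more RNA of the fibrinogen chains, prothrombin, plasminogen and both mannose-binding lectins and less of Pros1, F8, Vwf, Thbd and Masp1. Of 43 members tested, 16 were higher and 5 lower in ysE, where 13.7% and 16.9% of all transcripts were called in these directions. The share of lower members lay below that of all transcripts. The median log2 difference of the list was 1.62 against -0.05 over all transcripts. Among the clotting genes, Fga (log2 difference 3.93 ± 1.18 (SE), adjusted p = 0.0306), Fgb (adjusted p = 0.0119), Fgg (adjusted p = 0.0189), F13b, F2, F7, Proc, Kng1 and Plg were higher in ysE, by 8.39-fold (Plg) to 15.98-fold (Fgb). Among the complement genes, Mbl1 (log2 difference 4.38 ± 0.68 (SE), adjusted p = 0.00137), Mbl2, C2, Cfb, C8a and C8b were higher, together with Vtn (log2 difference 2.78 ± 0.40 (SE), adjusted p = 0.000999). The 5 genes that were lower in ysE were F8 (log2 difference -3.90 ± 0.47 (SE), adjusted p = 0.000432), Masp1 (adjusted p = 0.000685), Vwf (adjusted p = 0.000894), Thbd (adjusted p = 0.00439) and Pros1 (adjusted p = 0.0237). F10 (log2 difference 2.82), Cfi (3.26) and C9 (3.29) did not pass the test, with adjusted p of 0.111, 0.0839 and 0.1. F13a1 and the C1q genes had values between -3.91 and -2.69 and did not pass it either.

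In VYS mesoderm, 13 of the higher genes with at least 1 RPKM in ysE stood at a median of 9.41% (mesoderm A) and 13.1% (mesoderm B) of their mean level in ysE. The 7 visceral endoderm markers, which were not chosen by a call, stood at 11.03% and 19.8%. The 13 genes were chosen by their call against mesoderm. Their low percentages follow from that choice, so the medians of the sets cannot be weighed against each other. Whether mesoderm libraries held endoderm RNA was not tested. In both sets, mesoderm B was higher than mesoderm A. By the same test, 6 of 7 visceral endoderm and 4 of 7 hepatoblast and hepatocyte markers were higher in ysE, like the higher members. All 6 endothelial, all 6 megakaryocyte, all 6 erythroid, 4 of 8 macrophage and 3 of 5 mesenchyme markers were lower in ysE, like the lower members. The part of these markers' cells in the results was not tested. Erythroid markers summed to 560.4 to 649 RPKM in ysE and 22170.0 to 27130.0 in mesoderm, and mesenchyme markers to 28.5 to 45.4 and 882 to 995. Macrophage markers summed to 5.88 and 6.06 RPKM in ysE and 65.1 and 65.2 in mesoderm, of which Mrc1, which some endothelium also expresses, held 57.0 and 55.8 in mesoderm. Without ysE A, ysE B, mesoderm A or mesoderm B, the 16 higher members became 10, 10, 7 and 10.

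Between E9.25 and E12.5, complement and contact genes and Vtn were among the members that rose in ysE. Of 43 members, 10 were higher and 2 lower at E12.5, where 3.9% and 4.57% of all transcripts were called. The median log2 difference was 1.69 against -0.21 over all transcripts. Vtn rose 54.5-fold (log2 difference 5.77 ± 0.48 (SE), adjusted p = 0.00105), C3 42.0-fold (adjusted p = 0.0329), C4b 118-fold (adjusted p = 0.00393) and C2 11.4-fold (adjusted p = 0.00264). F13b, F12 (3 counts at E9.25, ratio 80.7, 95% interval 25.6 to 409 from counting error only), Hc and C8g rose too. F11 and C6 had no counts in E9.25 ysE and 542 and 242 at E12.5, which made them at least 1182-fold and 528-fold higher against a floor of 3 counts over the E9.25 group. C8a and Masp1 fell, to 1 and 3 counts, which gave ratios of 161 (28.9 to 6375) and 23.5 (7.99 to 114). The share of lower members was near that of all transcripts. Of the markers, 3 of 6 endothelial, 2 of 5 mesenchyme and 2 of 6 erythroid markers were lower at E12.5 too. Endothelial markers summed to 6.14 to 8.47 RPKM at E9.25 and 0.372 at E12.5, and their part in the fall of Masp1 was not tested. Of 7 hepatoblast and hepatocyte markers 1 was higher at E12.5, namely Alb (albumin), at 80.5 RPKM against 0.221 and 0.194 (adjusted p = 0.0318). The fibrinogen genes had values of 2.10 to 2.23, with adjusted p of 0.208 to 0.322, and F2 (3.10) and Proc (3.32) had adjusted p of 0.0662 and 0.0689. E12.5 ysE was a single library of another protocol, so it was assumed to vary like the other groups. Without E9.25 ysE A or B, 5 members were higher in either case and none was lower by edgeR. With all libraries, 14 and 3 members had an unadjusted p under 0.05, and DESeq2 called 13 higher and 3 lower. Over all transcripts, in either direction, 6351 of 24858 had such a p, and DESeq2 called 3937 of 22406. With only these ysE libraries in the fit, 24 were higher and 7 lower, where 10559 of 21023 transcripts were called in either direction.

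Members differed in both directions between fetal liver and E12.5 ysE. Of 43 members, 13 were higher and 11 lower in liver, where 23.7% and 22.6% of all transcripts were called, so the shares of the list were close to those of all transcripts. With only the groups compared in the fit, 19 were lower, where 13126 of 22341 transcripts were called in either direction. The median log2 difference was 0.15 (-0.24 with the genes without counts in a group at their bound) against 0.26 over all transcripts. Higher in liver were F5 (log2 difference 3.86, adjusted p = 0.0112), F8, Vwf (adjusted p = 0.000894), F13a1, F12 and Klkb1 of the clotting genes. Of the complement genes C1qa, Masp1 (adjusted p = 0.000163), Masp2, Cfp, Hc (adjusted p = 0.00133), C8a (adjusted p = 0.00058) and C8b (log2 difference 3.99 ± 0.74 (SE), adjusted p = 0.0021) were higher. Those with 1 to 3 counts in E12.5 ysE gave ratios of 88.4 for Klkb1 (95% interval 24.4 to 731.5, counting error only), 286 for C1qa (51.2 to 11300.0), 249.7 for Masp1 (85.4 to 1212) and 859.9 for C8a (154 to 33970.0). Lower in liver were Fgb (log2 difference -3.40 ± 1.02 (SE), adjusted p = 0.0219), Fgg (adjusted p = 0.0113), F3, Vtn, C2, C4b (adjusted p = 0.000926), Mbl2 (log2 difference -7.66 ± 1.13 (SE), adjusted p = 0.000645), Cfb, C6, C8g and C9 (adjusted p = 0.00722). Mbl2 was 202-fold lower in liver and C9 160.0-fold lower. C3 did not pass the test (log2 difference 0.15 ± 1.23 (SE), adjusted p = 0.945), nor did Fga, the third fibrinogen chain (log2 difference -3.37 ± 1.25 (SE), adjusted p = 0.0506), or F2, F7, F10, Proc, Plg and Cfi. For the 3 C8 chains, C8a and C8b were higher and C8g lower in liver.

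In liver, macrophage markers summed to 46.4 and 73.4 RPKM against 10.2 in E12.5 ysE, where Csf1r alone held 8.59, and 6 of 8 were higher in liver. Megakaryocyte markers summed to 99.1 and 159 against 1.17, and 5 of 6 were higher. Endothelial markers summed to 37.1 to 37.7 against 0.372, and 5 of 6 were higher. Erythroid markers summed to 1298 to 2501 against 38.7, with 4 of 6 higher, and 2 of 5 mesenchyme markers were higher. Lower in liver were 6 of 7 visceral endoderm and 4 of 7 hepatoblast and hepatocyte markers. The part of these markers' cells in the higher and lower members was not tested. Alb, the main protein of hepatocytes, stood at 358 and 767 RPKM in the liver libraries, and the list too was higher in liver B. Without liver A, 6 members were lower in place of 11. All these values rest on the same E12.5 ysE library as the comparison of ysE stages.

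**Figure D4:**
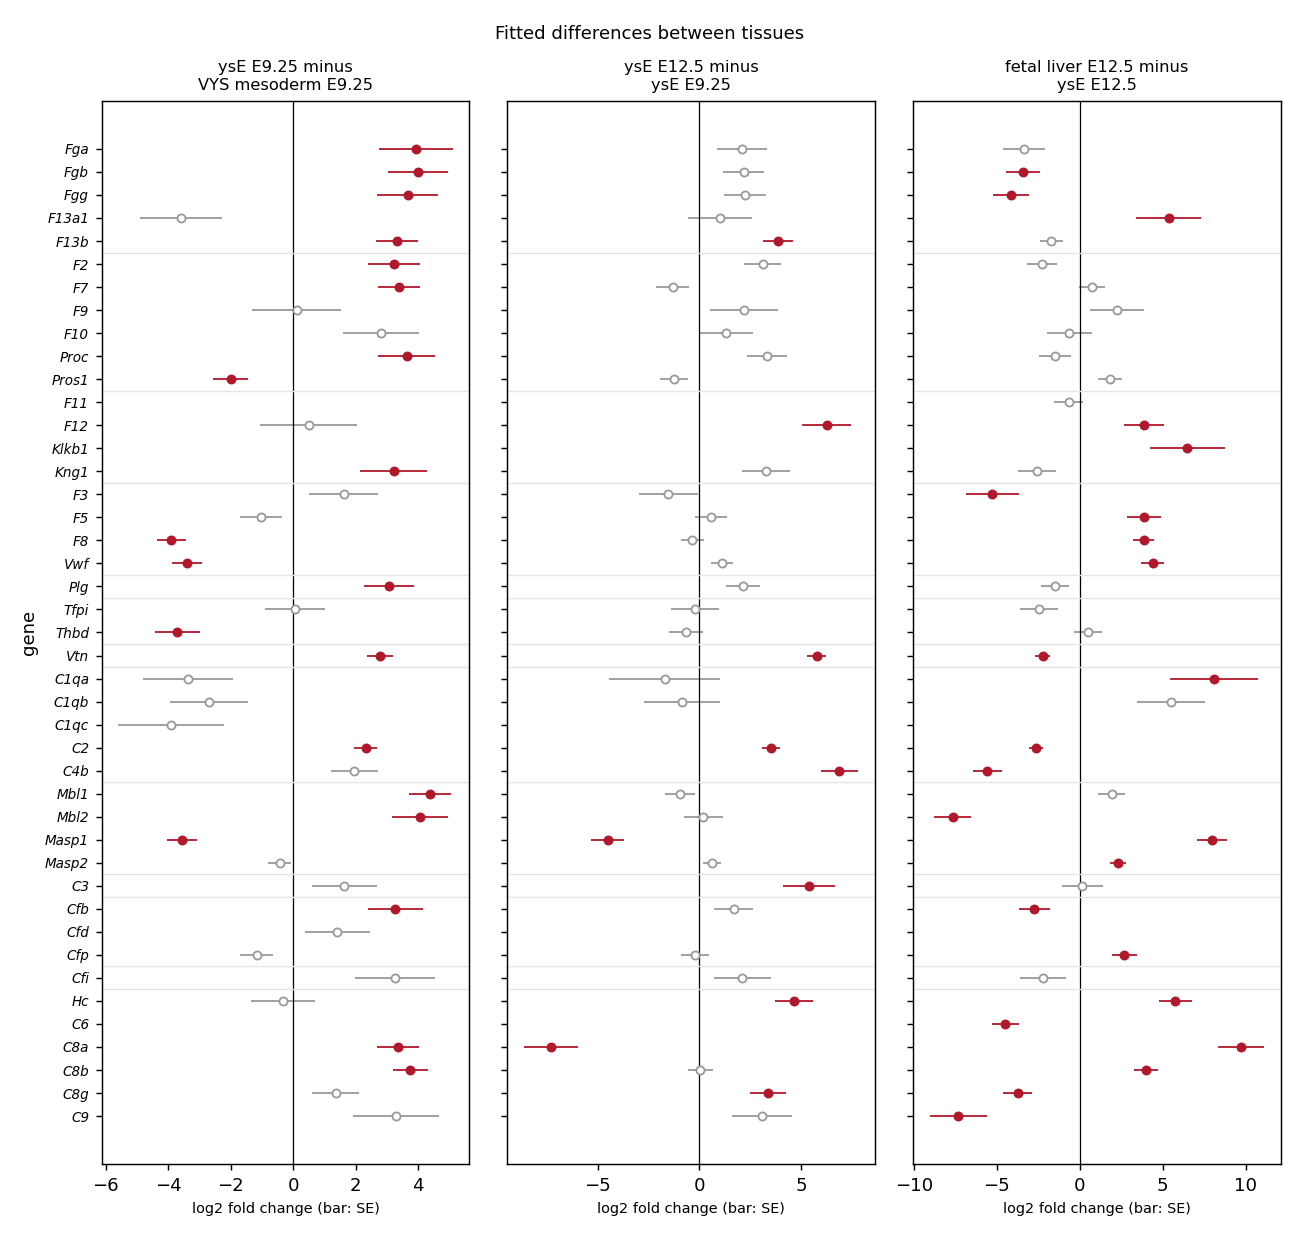
Fitted log2 difference (x axis) with its SE for each gene (y axis, by role) in 3 comparisons. Filled red points passed the test at an FDR of 5%, open points did not, and genes with 0 counts in a group are left out. Left, fibrinogen to Plg lie mostly to the right (higher in ysE) with F8, Vwf, Thbd and Masp1 to the left. Right, genes lie on either side, with Mbl2 at -7.66 and Vwf at 4.39.

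Cystic EBs had little RNA of most of the list. Against E9.25 ysE, 4 of 43 members were higher and 20 lower, where 27.1% and 23.2% of all transcripts were called. Against E12.5 ysE the counts were 3 and 25 (21.1% and 18.8%), and against liver 3 and 33 (24.6% and 20.9%). In each comparison the share of higher members lay below that of all transcripts. The median log2 difference was -0.48, -4.17 and -4.12, against 0.17, 0.42 and 0.20 over all transcripts. These comparisons share the 4 cystic EB libraries and are given side by side. The difference of Fga in cystic EBs was -6.80 ± 0.99 (SE) on the log2 scale from E9.25 ysE, -8.90 ± 1.12 from E12.5 ysE and -5.53 ± 0.95 from liver (adjusted p = 0.000542, 0.000319 and 0.0015). The differences were -3.82, -6.01 and -2.60 for Fgb and -5.74, -7.88 and -6.40 for Plg, in the same order. Mbl1 had 2 counts in the 4 cystic EB libraries against 1546 in E9.25 ysE and 1844 in liver, ratios of 1280.0 (95% interval 353.8 to 10580.0) and 2520.0 (696.7 to 20830.0). Hc, C8a and C8b differed from liver by -9.14, -10.71 and -7.57. Vtn and C2 differed from E12.5 ysE by -6.13 and -3.90 and did not pass the test against E9.25 ysE (adjusted p = 0.363 and 0.312).

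A few members ran the other way in cystic EBs. Pros1 was higher than in E9.25 ysE (log2 difference 1.99 ± 0.52 (SE), adjusted p = 0.0109), E12.5 ysE (adjusted p = 0.00898) and liver (adjusted p = 0.0433). F8 and Masp1 were higher than in both ysE stages (adjusted p = 0.000515 and adjusted p = 0.0112 against E9.25), and Masp2 than in E9.25 ysE (adjusted p = 0.0125). Against E12.5 ysE, 5 of 6 endothelial markers (sums of 8.17 to 47.4 against 0.372 RPKM) and 2 of 5 mesenchyme markers were also higher in cystic EBs (21.1% of all transcripts). Against E9.25 ysE, 1 of 6 endothelial and 1 of 5 mesenchyme markers were higher, shares below the 27.1% of all transcripts. The part of these markers' cells was not tested. F3 and Tfpi were higher than in liver (log2 difference 9.16 ± 1.60 (SE), adjusted p = 0.00168 for F3 and log2 difference 3.41 ± 0.99 (SE), adjusted p = 0.0201 for Tfpi), and neither passed the test against ysE. Within the dUTP protocol, with clone JN alone against E9.25 ysE, 5 members were higher and 20 lower. Within ScriptSeq, with clone A9 alone against liver, 3 were higher and 34 lower. Over all transcripts, in either direction, 13646 of 24858 (dUTP) and 12278 of 24858 (ScriptSeq) were called. All 7 visceral endoderm markers were lower in cystic EBs than in either ysE stage, as were 5 of 7 hepatoblast and hepatocyte and 5 of 6 erythroid markers against E9.25 and 6 of 7 and 1 of 6 against E12.5, where 1 erythroid marker was higher. Against liver, 3 of 7 visceral endoderm markers were higher and 2 lower, whereas 6 of 7 hepatoblast and hepatocyte, 6 of 8 macrophage, 5 of 6 megakaryocyte and 5 of 6 erythroid markers were lower. The part of these markers' cells in the results was not tested. Against E9.25 ysE, the 4 higher members became 1 without ysE A, 2 without ysE B and 8 without d10 JN, and against liver the 3 higher became 1 without liver A or without liver B.

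Between days and clones, 32 members had enough counts to be tested over 22452 transcripts. Between d15 and d10, none was called in either direction by edgeR, as for all transcripts (0% in both directions, with 304 of 22452 at an unadjusted p under 0.05, and 11 of 25997 called by DESeq2). Of the members, 8 had an unadjusted p under 0.05 with a higher level at d15, and 0 with a lower level, and DESeq2 called none. The median log2 difference of the list was 1.37, against -0.00038 over all transcripts. The fibrinogen genes had values of 2.12 (Fgb) to 2.81 (Fga), with an adjusted p of 1 for each. The C1q genes had 0 to 2 counts in each d10 library and 21 to 48 in each d15 library. The macrophage markers summed to 5.48 and 4.77 RPKM at d10 and 11.9 and 8.25 at d15, and none of the 7 that could be tested was called. Hepatoblast and hepatocyte markers summed to 288 and 111 RPKM at d10 and 1152 and 431 at d15. Visceral endoderm markers summed to 502 and 166 and then to 1281 and 569. Sums of endothelial and erythroid markers moved in opposite directions in the clones. None of these markers was called, and their part was not tested.

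Clone and protocol cannot be told apart. F10, Plg and Pros1 were lower in clone JN than in A9, and no member was higher (4.64% and 7.9% of all transcripts). Of the markers tested, 2 of 7 visceral endoderm, 1 of 6 hepatoblast and hepatocyte, 1 of 6 endothelial and 1 of 5 mesenchyme markers were lower in JN too. No marker was higher, and their part was not tested. F10 stood at 7.59 and 6.61 RPKM in A9 and 0.406 and 0.632 in JN (log2 difference -3.85 ± 0.31 (SE), adjusted p = 0.00137). The log2 differences of Plg and Pros1 were -2.06 ± 0.47 (adjusted p = 0.0421) and -1.42 ± 0.34 (adjusted p = 0.0482). At an unadjusted p under 0.05, 2 members were higher and 9 lower in JN, and DESeq2 called 1 higher and 8 lower. Over all transcripts, both directions together, 7264 of 22452 had such a p, so the list was near that share. DESeq2 called 5434 of 22784 transcripts, and edgeR with the day as a term 4050 of 22452. With the day as a term 7 members were lower, without d10 A9 11, and without d15 JN 1. Tfpi and F3 were high in d15 A9 alone, at 523 and 63.1 RPKM against at most 97.4 and 11.6 in the other cystic EB libraries. Without d15 A9 the differences of Fga, Fgb, Fgg, F3, Tfpi and Cfi, which had not passed the test, changed sign.

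**Figure D5:**
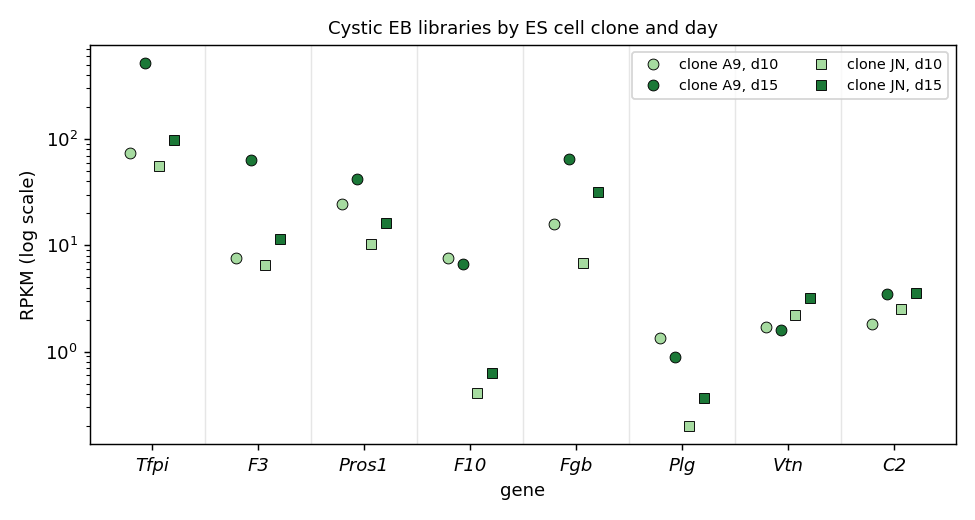
RPKM (y axis, log scale) of 8 genes (x axis) in the 4 cystic EB libraries, circles for clone A9 and squares for clone JN, light for d10 and dark for d15. Tfpi and F3 are highest in d15 A9 (523 and 63.1), and F10 is separated by clone (7.59 and 6.61 against 0.406 and 0.632).

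Other genes of the pathways were taken from a list of 55. Of these, 13 were higher and 13 lower in E9.25 ysE than in VYS mesoderm, and 23 were higher and 13 lower in liver than in E12.5 ysE, against 13.7% and 16.9% and 23.7% and 22.6% of all transcripts. For the lower genes in liver the share was near that of all transcripts. By the smallest adjusted p, the higher genes in ysE against mesoderm were F2rl1, a protease-activated receptor (log2 difference 3.52 ± 0.44 (SE), adjusted p = 0.000504), Serpinc1, antithrombin (adjusted p = 0.000643), and Ggcx, the enzyme that makes Gla residues (adjusted p = 0.00187). The lower genes were F2rl3, a thrombin receptor of platelets (log2 difference -4.23 ± 0.62 (SE), adjusted p = 0.00108), Anxa2 (adjusted p = 0.0015) and Gp5, a platelet glycoprotein (adjusted p = 0.00234). In liver against E12.5 ysE, Itgb3 of the fibrinogen receptor (adjusted p = 0.000854), F2rl3 (adjusted p = 0.00106) and C1qbp (adjusted p = 0.00115) were higher, and F2rl1 (adjusted p = 0.0001), Plaur, the urokinase receptor (adjusted p = 0.000104), and C4a (adjusted p = 0.000108) were lower. Ggcx and Vkorc1 of the vitamin K cycle, Lman1 and Mcfd2 of secretion, and Proz, a vitamin K-dependent plasma protein listed with them, were all called lower in cystic EBs than in either ysE stage (23.2% of all transcripts against E9.25 and 18.8% against E12.5). The calls follow TMM scaling. In RPKM, Lman1 overlapped between cystic EBs (37.5 to 60.1) and E9.25 ysE (57.2 and 55.8). Of the serpins and inhibitors, 5 of 9 were higher in E9.25 ysE than in mesoderm (13.7%). In cystic EBs, 6 of 55 were higher and 30 lower than in liver, and against ysE the counts were 11 and 20 (E12.5) and 11 and 16 (E9.25). Over all transcripts the shares were 24.6% and 20.9% against liver, 21.1% and 18.8% against E12.5 ysE and 27.1% and 23.2% against E9.25 ysE. Between E12.5 and E9.25 ysE, 7 were higher and 2 lower at E12.5 (3.9% and 4.57% of all transcripts). Between clones 2 of 45 were lower in JN (4.64%).

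H3K4me3, a histone mark of active gene starts, was measured in 1 library of E12.5 VYS from FVB mice (endoderm and mesoderm together, pooled over litters). Of the 32 members with a RefSeq start, 19 (59.4%) had a peak within 1 kb, against 61.6% of 15739 genes. For the 11 members without a start, 8 had a peak within 1 kb of either gene end, where neighbours may add peaks, against 57.7% of 20775 genes. At starts, all 12 such members with their highest mean in E12.5 ysE had a peak, against 83.4% of the 2423 genes highest there. Of the 2020 such genes that reached 1 RPKM, as these 12 did, 94.0% had one, so the members were near that share. Of the 14 highest in liver, 4 had one (F13a1, C1qb, C1qc and C3), against 62.7% of 3144 genes, or 86.6% of the 1986 that reached 1 RPKM. F5, F9, F12, Klkb1, Mbl1, Masp2, Cfp, Hc, C8a and C8b had none. By either gene end, Kng1, Plg, C2, Cfb and Cfi of those highest in E12.5 ysE had a peak and Proc and C4b had none, and of those highest in liver C1qa had one and Vwf none. Peaks at the starts of Fga, Fgb, Fgg, F2 and C8g had a score of 3100.0, which the peak caller derives from its p-value. The peaks of Kng1 and Cfi, found by gene end, had the same score. Since these peaks share 1 value, the score does not rank them. The highest of all 22343 peaks was 3233 and the lowest 50.1. The nearest peaks of Tfpi (at the downstream of its starts), Mbl2 and C1qc scored 79.1, 78.1 and 70.0. Each score is that of the nearest peak, or the lower where distances tied, so a stronger peak within 1 kb may stand beside it. The peak at Fgg spans chr3:83007640-83011664 on mm10 (GRCm38) and overlaps the promoter shown above.

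DNA methylation came from whole genome bisulfite sequencing of CastxFVB and FVBxCast crosses, with 2 libraries each of E12.5 ysE, E12.5 liver and d15 cystic EBs (ES cell lines CF clone C2 for CastxFVB and FC clone A2 for FVBxCast). Over all CpGs, 67.8% and 60.1% of reads were methylated for ysE, 77.6% and 79.8% for liver and 87.0% and 82.6% for cystic EBs. Methylation of a promoter was the share of methylated reads at CpGs within 1 kb of the start. At this depth only 4 members (Fgg, C8b, Pros1 and Tfpi) had at least 5 reads in all 6 libraries, and 2 libraries against 2 cannot reach a p of 0.05 in an exact test. With the libraries of a tissue added up, a choice made after the coverage was seen, 18 members with 20 starts had at least 5 reads in each tissue, and their median was 40% for ysE, 65.2% for liver and 83.7% for cystic EBs, against 33.3%, 47.4% and 56.3% over 13227 starts. Intervals below are 95% Clopper-Pearson intervals and cover counting error only. Fgg was methylated at 11.8% in ysE (2 of 17 reads, interval 1.46 to 36.4, 16.7% and 0% in the libraries), 89.3% in liver (71.8 to 97.7) and 83.3% in cystic EBs (58.6 to 96.4). F2 had 0 of 8 methylated reads in ysE, which allows up to 36.9%, and stood at 63.6% in liver and 81.3% in cystic EBs. In C8b, expressed in liver, methylation was 30.0% in ysE (14.7 to 49.4), 56.7% in liver (37.4 to 74.5) and 91.2% in cystic EBs (76.3 to 98.1). Vtn had 88.9% in ysE (65.3 to 98.6), 42.9% in liver (9.90 to 81.6) and 92.7% in cystic EBs (80.1 to 98.5). The liver libraries of Vtn gave 0 of 3 and 3 of 4 reads, so its liver value moves by over 1.5 times without either of them. Pros1 had 38.5% in ysE (13.9 to 68.4), 9.68% in liver (2.04 to 25.8) and 56.0% in cystic EBs (34.9 to 75.6). Its libraries disagreed, with 1 of 8 and 4 of 5 methylated reads in ysE, 1 of 18 and 2 of 13 in liver, and 11 of 15 and 3 of 10 in cystic EBs. Tfpi, lowest in liver by RNA, had at the downstream of its starts 20.8% in ysE (7.13 to 42.2), 79.55% in liver (64.7 to 90.2) and 38.9% in cystic EBs (17.3 to 64.3), and at the upstream start 21.4%, 41.7% and 69.6%. The cystic EB libraries of Tfpi gave 5 of 16 and 2 of 2 reads at the downstream start and 14 of 16 and 2 of 7 at the upstream start, and the liver libraries 1 of 5 and 4 of 7 at the latter. Leaving out 1 library moves the Pros1 value of each tissue by over 1.5 times, and likewise the cystic EB value at both Tfpi starts and the liver value at the upstream one.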

How the data were processed

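RNA-seq, whole genome bisulfite sequencing and H3K4me3 ChIP-seq files were used as deposited. Per the submitters' processing notes, reads were aligned with GSNAP to mm10, and peaks were called with MACS (1.4.2). The authors made the tables of raw counts and of RPKM per RefSeq transcript with RSeQC and their own scripts, and the library size behind RPKM was not given in the sources used here. Methylation calls were made by the authors with BisSNP, and the deposited percent methylation and coverage per CpG were turned back into methylated reads. The peak score is the deposited score of the peak caller.

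The 43 members, the other lists, the classes and the rule for named genes were chosen with earlier results of these data known. A gene was its transcript row with the highest mean count. Values were printed in every library for members with a mean of at least 5 RPKM in a tissue or called in E9.25 ysE against VYS mesoderm, and others by range. Of the 55 other pathway genes, the 3 with the smallest adjusted p in each direction of 2 comparisons were named. Counts were tested with edgeR (4.0.16, R 4.3.3) by the quasi-likelihood test after TMM scaling (0.766 to 1.21) and filterByExpr, over all 11 libraries in 5 tissue groups (6 residual degrees of freedom), or over the 4 cystic EB libraries for days and clones. P-values measure the spread between these libraries. In the tissue tests the 4 cystic EB libraries counted as replicates. They share ES clones, and their spread mixes clone, protocol and day. Alternatives used DESeq2 (1.42.0), limma (3.58.1) on log2(RPKM + 1), other filters and left-out libraries. Cystic EB letters mark the ES clone (differences between clones at d10 and d15 correlated with r = 0.632 over 24858 transcripts), so the letter was tried as a block. Ratios against a group with 0 counts used a floor of 3 counts over the group, and those with 1 to 3 counts used the counts themselves, with 95% intervals. Several members have more than 1 RefSeq row that share reads. The input DNA library was not used here. Scripts were tested on simulated data.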

Additional observations from a re-analysis of the deposited data

Results flagged for a closer look

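Of 22 members with at least 1 RPKM in a cystic EB library, 5 had a library whose gap to the nearest other exceeded the 95% limit of Dixon for 4 samples. Cfi, Kng1 and F8 reached 1 RPKM only in the flagged library. The libraries also differ in clone, protocol and day, so the share that chance alone would flag is not known. In the d15 library of clone A9, Tfpi stood at 522.621 RPKM (ratio of gap to range 0.911), F3 at 63.124 (0.91), Cfi at 2.419 (0.852) and Kng1 at 2.151 (0.864). In the d10 library of clone A9, F8 stood at 1.162 RPKM (0.914).

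Among members that reached 1 RPKM in at least 1 library of each clone, the direction from d10 to d15 was opposite in the clones for 3, each with 1 library for each clone and day, and the difference between clones was not tested. Thbd had a log2 difference of 2.33 in A9 and -0.244 in JN, which is 2.57 apart. For Vtn the values were -0.0814 and 0.558 (A9 minus JN -0.639), and for Masp1 -0.568 and 0.457 (-1.03).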

How the results depend on the processing

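E12.5 ysE had 1 library, so its comparisons rest on the spread of the other groups, and low counts limit F9, F12, Hc and C6 outside the tissue that expressed them. Over 2383 values of single members under the alternatives, 2122 kept direction and side of the threshold, 143 lost the call, 108 gained it and 10 changed sign. TMM scaling moved all values of E12.5 against E9.25 ysE by -0.164 relative to DESeq2's size factors. At an FDR of 1%, 8 members stayed higher in E9.25 ysE than in mesoderm (4315 of 24858 transcripts called in either direction). At E12.5 against E9.25, 5 were higher and 0 lower (472 of 24858). In liver against E12.5 ysE, 7 were higher and 7 lower (7463 of 24858). In cystic EBs, 1 was higher than in E9.25 ysE (8097 of 24858) and 1 than in liver (6793 of 24858). In JN 1 was lower (632 of 22452). DESeq2 called 9 lower in E9.25 ysE than in mesoderm, 8 higher in cystic EBs than in ysE of E9.25, and gave 1 higher and 8 lower for JN. Over all transcripts, in either direction, it called 9057 of 24620, 13597 of 25174 and 5434 of 22784 in these comparisons. With only the groups compared in the fit, 12 were lower in ysE than in mesoderm, 24 higher and 7 lower at E12.5 than at E9.25, and 19 lower in liver. Over all transcripts, in either direction, 13160 of 21824, 10559 of 21023 and 13126 of 22341 were called in these fits. The day as a term gave 7 lower in JN. The cause of these changes was not tested.

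With 1 library left out at a time, members higher and lower in E9.25 ysE than in mesoderm ranged from 7 (without mesoderm A) to 10 and stood at 4. At E12.5 against E9.25 they were 5 and 0 without either E9.25 library. In liver against E12.5 ysE 9 to 10 were higher and 6 (without liver A) to 9 lower. In cystic EBs, 1 (without ysE A) to 8 (without d10 JN) were higher and 15 to 20 lower than in E9.25 ysE, 3 to 4 and 25 to 26 than in E12.5 ysE, and 1 (without liver A or B) to 3 and 28 to 34 than in liver. Between clones 0 were higher and 1 (without d15 JN) to 11 (without d10 A9) lower in JN, and between days 0 in either direction. With each library left out, a choice made after the data were seen, members with their highest mean in cystic EBs were 1 (without d15 A9) to 3 and in VYS mesoderm 2 (without liver A) to 5. The log2 difference of C8g in cystic EBs against liver ranged from -0.74 to 0.44 (0.44 without liver B, 0.18 without d10 A9 and 0.11 without d15 A9). The differences of JN against A9 ranged from -3.06 to 0.41 for Fga, -2.60 to 0.20 for Fgb, -1.998 to 1.04 for Fgg, -2.94 to 0.18 for F3, -2.90 to 0.016 for Tfpi and -3.64 to 1.11 for Cfi, each highest without d15 A9. F5 in cystic EBs against E9.25 ysE turned to -0.022 within dUTP libraries. None of the values that changed sign passed the test.

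With the replicate block, 15 members were higher and 5 lower in E9.25 ysE than in mesoderm (8006 of 24858 transcripts called in either direction). In cystic EBs the counts were 4 and 20 against E9.25 ysE (12964 of 24858) and 3 and 33 against liver (11616 of 24858). Between days they were 0 and 0. The block ended the call of Kng1 in ysE against mesoderm and changed no other call. Deviations of same-lettered ysE and mesoderm libraries correlated with r = -0.0915. Whether the letters mark a shared litter was not stated, and this value cannot decide it. The block was a single term for the letter over all libraries, with E12.5 ysE set to A, so it does not test such a pairing either. Promoter methylation had member medians of 22.54% in ysE and 47.76% in liver with at least 5 reads in each library (4 members), and 40% and 65.15% with both libraries of a tissue added up. A minimum of 10 reads or a window of 0.5 kb left no member. Peaks within 1 kb, chosen for 27 members, became 29 within 2 kb and 23 at a score of at least 200.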
